A study of Mus musculus with 12 samples.

Results

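The transcripts described here belong to the heat shock response, the unfolded protein response and the ATF4 branch of the integrated stress response. A list of 37 gene symbols was matched to the gene names of a count table of 55487 mouse genes, and all 37 were found. They fall into 11 genes of cytosolic and mitochondrial heat shock, 17 genes of the unfolded protein response, and 9 genes of ATF4 and the integrated stress response. Ddit3 is present under 2 identifiers, so the symbols cover 38 rows. The second Ddit3 row is a short model inside the first and held no count in any library, which left 37 rows for testing, 1 per gene.

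The RNA came from bone-marrow-derived macrophages, primary cells grown out of mouse marrow with macrophage colony-stimulating factor. Marrow was from Fes+/+ mice (wild type) or from mice labelled Fes-/-, for the gene of the cytoplasmic tyrosine kinase FES. Each genotype was either treated with lipopolysaccharide (LPS, a bacterial wall component sensed by TLR4) at 1 µg/mL or given PBS and described as untreated, and the recorded time was 4 hours. The 4 groups were Fes+/+ with PBS, Fes+/+ with LPS, Fes-/- with PBS and Fes-/- with LPS, with 3 libraries in each. The series design names 3 mice per genotype and the libraries are titled as biological replicates, but no label says whether a replicate number marks 1 mouse across treatments, and the age, sex and strain of the mice and the nature of the allele are not given in the sources used here.

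Misfolded protein in the cytosol frees the transcription factor HSF1, which drives genes for the HSP70, HSP90 and HSP40 chaperones. Misfolded protein in the endoplasmic reticulum (ER) is sensed by IRE1, PERK and ATF6, which act through the spliced XBP1 factor, through phosphorylation of the translation factor eIF2alpha, and through a released ATF6 fragment. PERK and the other eIF2alpha kinases favour translation of ATF4, which drives amino acid synthesis genes and the factor CHOP, and macrophages sensing LPS through TLR4 are known to engage parts of these pathways while raising secretory output.

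The libraries held 61016254 to 101027166 counts. Of all genes, 15801 passed the filter on low counts. Fes itself stood at 151.6 to 189 CPM (counts scaled by library size, with TMM factors) in the 6 wild-type libraries and at 32.9 to 70.5 in the 6 Fes-/- libraries, a log2 difference of -1.38 ± 0.07 under PBS and -2.26 ± 0.07 under LPS (± standard error). All 10 macrophage markers were detected, with a summed level of 18240 to 41488 TPM (transcript levels scaled by gene length and library size), higher in all PBS than in all LPS libraries. Markers of neutrophils summed to 14.3 to 45.4 TPM, highest in wild-type PBS libraries (33.4 to 45.4 TPM, against 23.5 to 30.9 TPM in Fes-/- PBS libraries), and those of T, B, dendritic, stromal and erythroid cells to at most 0.811 TPM in any library. The part of these shifts in the results below was not tested.

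Levels below are CPM in replicate order 1, 2, 3 within a group. Fold changes are log2 values from edgeR's quasi-likelihood test with Benjamini-Hochberg adjustment over all 15801 genes, called under an adjusted p of 0.05. TMM sets the typical gene near 0: the median LPS change over all genes was -0.07 in wild-type and -0.08 in Fes-/- macrophages. Scaling by the library total alone, which gives each gene's share of all counts, moved that median to -0.98 and -1.01. The TMM factors were 1.35 to 1.40 in PBS libraries and 0.707 to 0.737 in LPS libraries. A direction is therefore stated here without reserve only where it was called alike in 6 analyses (edgeR with TMM, with RLE factors and with no factor, DESeq2, and limma on log2(TPM + 1) and on log2(TPM + 0.1)) in both genotypes. For the other members both scales are given, with calls by edgeR with TMM factors unless another tool is named. In bulk RNA, fewer expressing cells and less transcript per cell cannot be told apart.

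After LPS, 12 of the 37 genes moved 1 way in all 6 analyses and both genotypes. The 5 that rose were the inducible HSP70 genes Hspa1a and Hspa1b, the HSP40 gene Dnaja1, the ER chaperone gene Hspa5 and the phosphatase adaptor gene Ppp1r15a. The 7 that fell were the sensor genes Eif2ak3 (PERK) and Ern1 (IRE1), the ER degradation gene Herpud1, the ER cochaperone gene Dnajb9, the HSP40 gene Dnajb1, and the transcription factor genes Ddit3 (CHOP) and Atf5. Over all tested genes, 14.5% rose and 34.2% fell by the same requirement, so neither count stands above its background.

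Relative to the typical gene, 26 of the 37 members were called in wild-type macrophages, where 73.4% of all genes were called. Of these, 18 were higher after LPS (34.6% of all genes) and 8 were lower (38.8%). In Fes-/- macrophages 25 were called against 73.2% of all genes, 17 of them higher (34.3%) and 8 lower (38.9%). DESeq2 called 30 members in wild type and 28 in Fes-/- (74.1% and 73.7% of all genes), and edgeR with RLE factors 28 and 28 (73.5% and 73.1%). The median change of the members was 0.29 in wild-type and 0.25 in Fes-/- macrophages. As a share of all counts the split turned over: 6 members were higher and 24 lower in wild type, and 5 were higher and 27 lower in Fes-/-. Of all genes, 16.3% were higher and 68.5% lower on that scale in wild type, and 15.9% and 70% in Fes-/-. The members' median was then -0.62 and -0.68, above the median of all genes on that scale. By role, the heat shock genes split 6 higher to 1 lower relative to the typical gene in both genotypes and 3 to 7 as a share of counts. Among unfolded protein response genes the split was 9 to 4 in both genotypes, and 2 to 12 (wild type) or 1 to 13 (Fes-/-) as a share of counts. The ATF4 group split 3 to 3 in wild type and 2 to 3 in Fes-/-, and 1 to 5 and 1 to 7 as a share of counts.

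**Figure D1:**
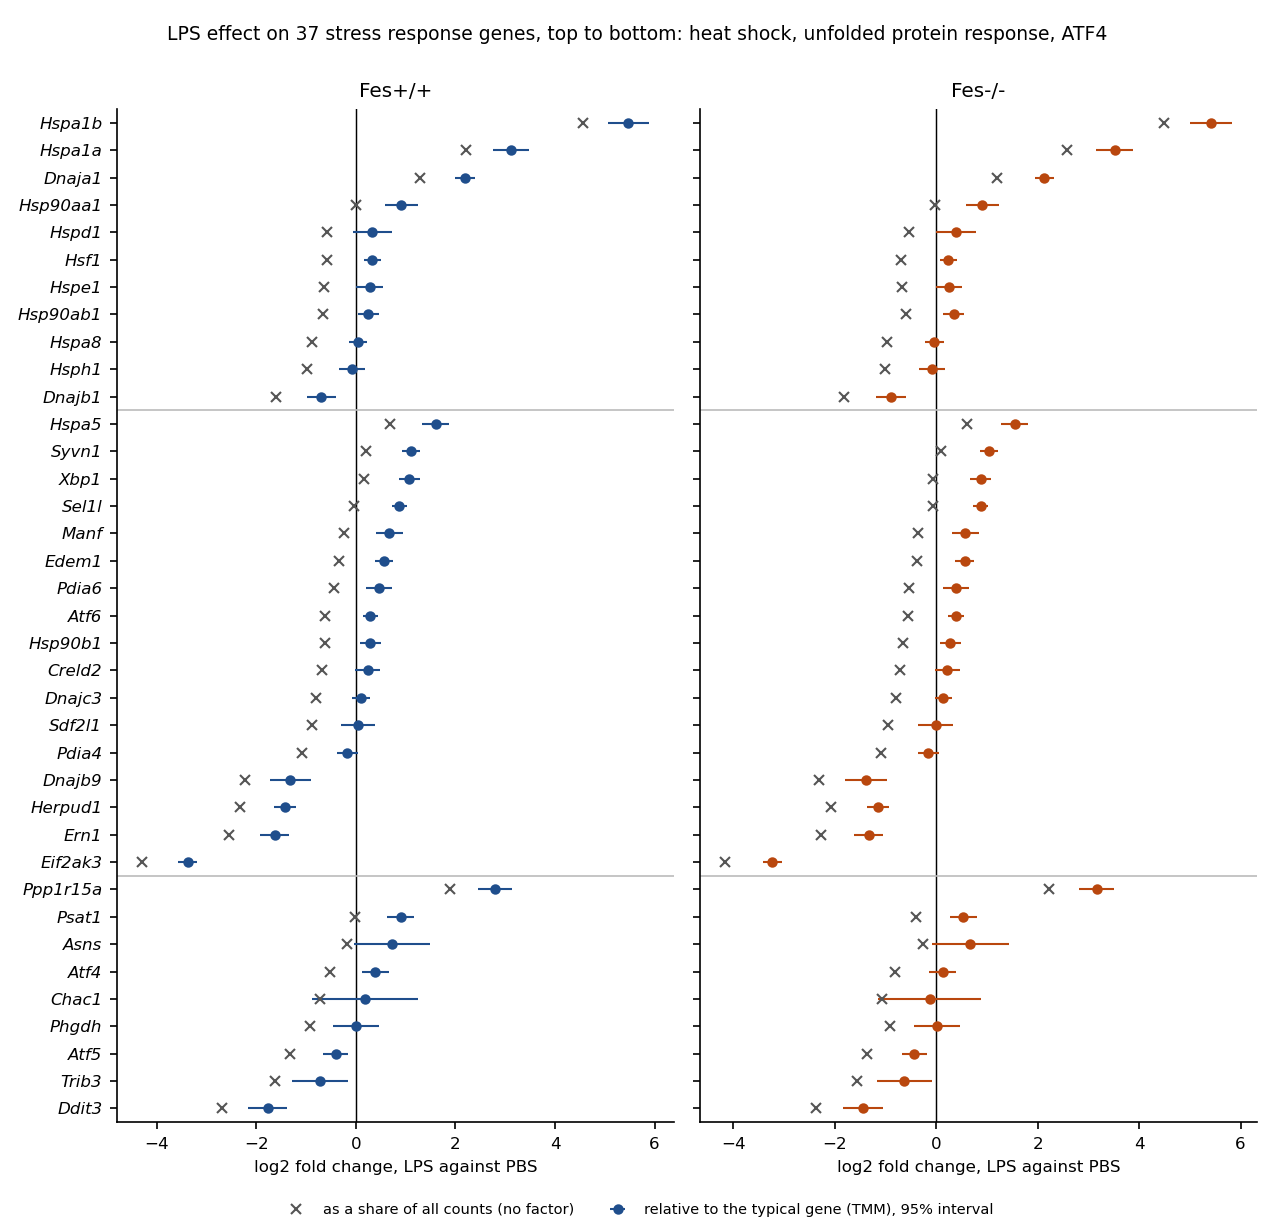
LPS effect on each of the 37 genes as a log2 fold change, in wild-type (left) and Fes-/- macrophages (right). Filled points with 95% intervals are relative to the typical gene and crosses are the change as a share of all counts, and the horizontal lines part the heat shock, unfolded protein response and ATF4 groups. Hspa1b has the highest and Eif2ak3 the lowest value in both panels, and each cross lies to the left of its point.

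The largest rise was that of Hspa1b (ENSMUSG00000090877, GRCm38 chromosome 17, 34956436 to 34959238, minus strand), which encodes an inducible cytosolic HSP70. It stood at 1.03, 0.899 and 1.28 CPM in wild-type PBS libraries and 50.8, 37.7 and 54.8 CPM in wild-type LPS libraries. In Fes-/- macrophages the values were 1.77, 1.24 and 1.19 CPM under PBS and 62.9, 62.8 and 53.9 CPM under LPS. Every LPS library lay far above every PBS library, with a log2 change of 5.48 ± 0.19 in wild type (adjusted p = 7.3e-12) and 5.42 ± 0.19 in Fes-/- (adjusted p = 6.82e-12). The changes as a share of counts were 4.57 and 4.48.

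Its near copy Hspa1a (chromosome 17, 34969190 to 34972156, minus strand) went from 1.08, 0.979 and 1.39 to 9.39, 9.49 and 11.2 CPM in wild type, and from 1.23, 1.10 and 0.866 to 12.9, 13.0 and 10.7 CPM in Fes-/-. The groups did not overlap, and the change was 3.12 ± 0.17 in wild type (adjusted p = 2.48e-10) and 3.51 ± 0.17 in Fes-/- (7.62e-11). The split of counts between the pair is uncertain, because 61.7% of the 75-base words of Hspa1a and 55.8% of those of Hspa1b occur in another gene, for Hspa1a mostly in Hspa1b (52.7%). Exons of Hspa1a also overlap Gm20481 on the opposite strand over 564 bases, and no source names the strand setting of the counting. With the counts of both genes added, the rise was 4.70 ± 0.18 in wild type and 4.87 ± 0.18 in Fes-/- macrophages (26.0-fold and 29.2-fold, adjusted p = 1.48e-11 and 1.07e-11). The pair started from about 1 CPM each under PBS, whereas the constitutive HSP70 gene Hspa8 stood at 1177 ± 61.9 CPM (mean ± SD, n = 3) in wild-type PBS libraries.

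The 2 genes are also nearly the same upstream of their starts. In the RefSeq promoter windows on GRCm38.p6, 247 of the 250 upstream bases (98.8%) were identical. The last 150 bases before each start are shown, 5′ to 3′ on the gene's strand, because the members with the 2 highest fold changes share them; capitals mark the 2 units of a heat shock element, the letters GAA and TTC in either order with 2 bases between them.
Hspa1a, chr17:34972157-34972306, minus strand: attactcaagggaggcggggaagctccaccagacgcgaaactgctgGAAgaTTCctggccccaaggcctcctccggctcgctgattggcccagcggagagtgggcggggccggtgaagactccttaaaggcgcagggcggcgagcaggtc
Hspa1b, chr17:34959239-34959388, minus strand: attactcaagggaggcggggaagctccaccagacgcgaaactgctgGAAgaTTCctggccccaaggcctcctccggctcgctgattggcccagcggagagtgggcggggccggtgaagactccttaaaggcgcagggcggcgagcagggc
A promoter window was matched for 31 of the 37 genes, and none for Hsf1, Hspa8, Hsp90aa1, Hsp90ab1, Atf6 and Manf. Some of the 31 genes had more than 1 window, 38 windows in all. A gene was counted if any of its windows held the element, while the shares beside these counts are of single windows. Only exact letters were searched, so an element with an imperfect unit was not counted. The element of 2 units occurred on either strand within 250 bases upstream of 9 of these genes (Asns, Atf5, Dnaja1, Eif2ak3, Hspa1a, Hspa1b, Hspd1, Hspe1 and Hsph1), and in 12.8% of the 32851 windows of that length. The element of 3 units (GAA and TTC in alternation, each parted by 2 bases), which contains the shorter one, occurred in 2 of the 31 genes, the mitochondrial chaperonin pair Hspd1 and Hspe1, and in 0.466% of windows. Those 2 genes lie head to head and share 1 stretch, shown on the strand of each gene with the units in capitals.
Hspd1, chr1:55088054-55088081, minus strand: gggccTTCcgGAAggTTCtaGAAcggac
Hspe1, chr1:55088054-55088081, plus strand: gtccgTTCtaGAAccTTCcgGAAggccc
The stretch lies within an annotated exon of Hspd1 in GENCODE M21.

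Dnaja1 (chromosome 4, 40722150 to 40737149, plus strand), an HSP40 cochaperone of HSP70, rose from 61.9, 49.3 and 56.6 to 269, 259 and 239.7 CPM in wild type. In Fes-/- it rose from 54.7, 54.2 and 56.5 to 232, 232 and 259 CPM. The changes were 2.19 ± 0.09 (adjusted p = 1.24e-11) and 2.13 ± 0.09 (1.66e-11), with no overlap between PBS and LPS. Dnajb1 (chromosome 8, 83608193 to 83612653, plus strand), another HSP40 and a widely used heat shock target, moved the opposite way. Its values were 36.7, 30.4 and 33.9 CPM under PBS and 18.2, 26.5 and 17.8 CPM under LPS in wild type, and 34.0, 30 and 33.2 CPM under PBS and 16.5, 16.4 and 19.6 CPM under LPS in Fes-/-. It fell by 0.69 in wild type (adjusted p = 0.000384) and by 0.89 in Fes-/- (3.87e-05), and all LPS libraries lay below all PBS libraries.

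The cytosolic HSP90 genes depended on the scale. Hsp90aa1, the inducible HSP90, had 211, 121 and 166 CPM under PBS and 348, 281 and 311 CPM under LPS in wild type, and 185, 187 and 172 CPM under PBS and 322, 361 and 336 CPM under LPS in Fes-/-. Relative to the typical gene it was higher by 0.92 ± 0.15 (adjusted p = 9.42e-05) and 0.91 ± 0.15 (0.000104), while its share of counts changed by 0.01 and -0.03 (adjusted p = 0.965 and 0.869). LPS libraries of this gene lay above all PBS libraries on the CPM scale. Hsp90ab1, the constitutive HSP90, had 939, 827 and 834 CPM under PBS and 1161, 934 and 1006 CPM under LPS in wild type, and 790.4, 871 and 870.3 CPM under PBS and 1019, 1093 and 1092 CPM under LPS in Fes-/-. The wild-type groups overlapped and the Fes-/- groups did not. Its values of 0.25 ± 0.09 and 0.34 ± 0.09 relative to the typical gene (adjusted p = 0.0249 and 0.00464) stood against -0.66 and -0.59 as a share of counts, both called. The wild-type call ended without wild-type PBS 2, wild-type PBS 3 or wild-type LPS 1 (changes of 0.24, 0.24 and 0.16, adjusted p = 0.0579, 0.0628 and 0.162).

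Hsf1 itself, the transcription factor of this response, had 20.4, 17.8 and 20.0 CPM under PBS and 25.1, 23.2 and 24.8 CPM under LPS in wild type, and 18.7, 20.6 and 19.4 CPM under PBS and 23.8, 22.8 and 22.6 CPM under LPS in Fes-/-. The groups did not overlap, but its sign turned with the scale, from 0.33 and 0.24 relative to the typical gene to -0.58 and -0.70 as a share of counts, all called; the Fes-/- value without Fes-/- LPS 1 was 0.21 (adjusted p = 0.0585). Of the other 4 heat shock genes, edgeR with TMM factors called none relative to the typical gene in either genotype, while other tools called Hspd1 and Hspe1. Hspa8 and Hsph1 had changes of -0.08 to 0.04 on that scale and -1.02 to -0.87 as a share of counts, where they were called lower. The mitochondrial chaperonin genes Hspd1 and Hspe1 had 0.33 and 0.28 in wild type and 0.39 and 0.25 in Fes-/- (adjusted p = 0.0551 to 0.116). DESeq2 called both genes in both genotypes, Hspd1 at 0.38 and 0.45 (adjusted p = 0.0477 and 0.0198) and Hspe1 at 0.32 and 0.30 (0.0219 and 0.0323), and edgeR with RLE factors called Hspe1 in both genotypes and Hspd1 in Fes-/-. With the replicate number as a block in wild type, Hspd1 reached 0.34 (adjusted p = 0.00022) and Hspe1 0.27 (0.00385), and as a share of counts both were lower (-0.57 and -0.63). Leaving out 1 library also brought calls: both genes in wild type without wild-type PBS 1 or LPS 2 (adjusted p = 0.00684 to 0.0355), Hspe1 in wild type without Fes-/- PBS 1 or PBS 3 (0.0483 and 0.046), and both in Fes-/- without wild-type PBS 1, PBS 2, LPS 1 or LPS 2 (0.0185 to 0.0495), the last through the spread that the groups share. Parts of Hspa8, Hsp90aa1, Hspd1, Hspe1 and Dnaja1 (14.6% to 42.8% of their 75-base words) also occur in other genes or pseudogenes, and exons of Hspd1 and Hspe1 overlap over 112 bases on opposite strands, so their counts are uncertain.

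**Figure D2:**
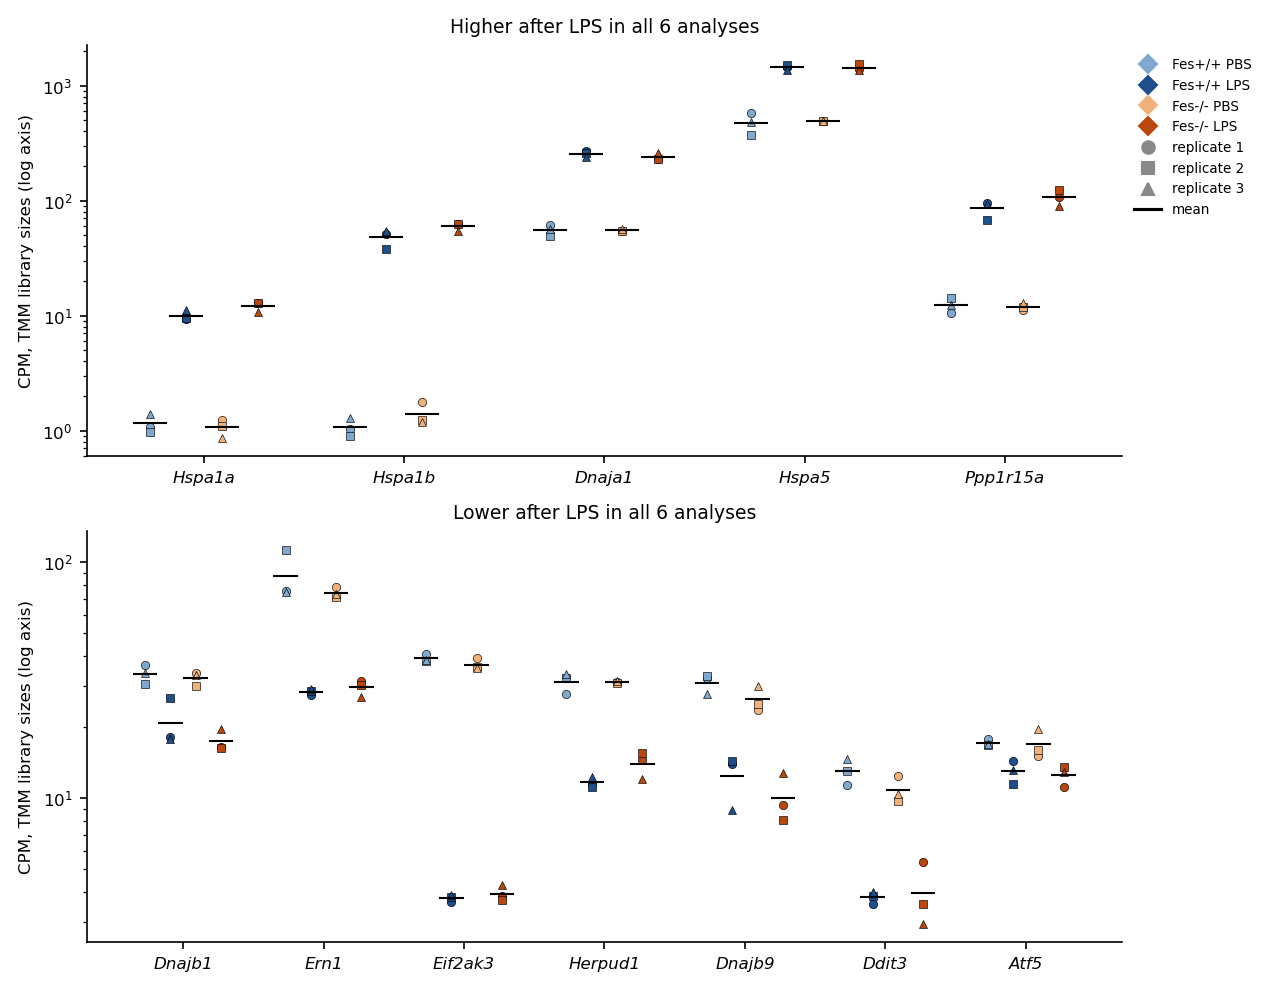
Levels in CPM (log axis) of the 12 genes called in 1 direction by all 6 analyses in both genotypes, in each of the 12 libraries; colours mark the 4 groups, symbols the replicate number and short lines the group means. In each gene the 3 LPS libraries of a genotype lie on 1 side of its 3 PBS libraries.

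Hspa5 (chromosome 2, 34771970 to 34777547, plus strand) encodes BiP, the HSP70 of the ER lumen and the standard marker of the unfolded protein response. It had 574, 369 and 484 CPM under PBS and 1459, 1505 and 1371 CPM under LPS in wild type. In Fes-/- it had 495, 489 and 489.7 CPM under PBS and 1386, 1536 and 1375 CPM under LPS. All LPS libraries were higher, by 1.60 ± 0.13 in wild type (adjusted p = 2.05e-08) and 1.54 ± 0.13 in Fes-/- (3.12e-08). It was the only one of the 17 unfolded protein response genes called higher by all 6 analyses in both genotypes, and its share of counts rose by 0.69 and 0.61.

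Of the 3 sensor genes, Eif2ak3 and Ern1 fell. Eif2ak3 (chromosome 6, 70844515 to 70905245, plus strand), the gene for PERK, fell from 41.0, 38.3 and 38.3 to 3.63, 3.81 and 3.90 CPM in wild type. The Fes-/- libraries went from 39.1, 35.8 and 35.5 to 3.84, 3.69 and 4.27 CPM. This left 9.64% of the PBS level in wild type (-3.37 ± 0.09, adjusted p = 1.61e-13) and 10.7% in Fes-/- (-3.23 ± 0.09, 1.98e-13), the largest fall of any member in either genotype. Ern1 (chromosome 11, 106394650 to 106487852, minus strand), the gene for IRE1, had 75.7, 112 and 74.8 CPM under PBS and 27.3, 28.6 and 29.0 CPM under LPS in wild type. Its Fes-/- values were 78.3, 71.5 and 73.0 CPM under PBS and 31.5, 30.1 and 26.8 CPM under LPS. All LPS libraries were lower (-1.63 ± 0.13, adjusted p = 4.36e-08; -1.33 ± 0.13, 3.64e-07), and wild-type PBS 2 was the highest of the 12. Atf6, the gene for the third sensor, had 137, 135 and 120.3 CPM under PBS and 157, 160.4 and 163 CPM under LPS in wild type, and 134, 136 and 124 CPM under PBS and 169, 181 and 164 CPM under LPS in Fes-/-. Its LPS libraries were all above its PBS libraries relative to the typical gene (0.29 and 0.39), while its share of counts was lower (-0.62 and -0.55), all called.

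Xbp1, the transcription factor whose mRNA IRE1 splices, had 100.4, 79.2 and 94.4 CPM under PBS and 181, 217 and 178 CPM under LPS in wild type, and 87.4, 93.4 and 90.8 CPM under PBS and 171, 157 and 172 CPM under LPS in Fes-/-. The LPS libraries were all higher relative to the typical gene (1.07 ± 0.10, adjusted p = 9.95e-08; 0.88 ± 0.10, 9.03e-07), but the share of counts was 0.16 and -0.05, neither called. Gene-level counts do not separate the spliced form. Syvn1, the ubiquitin ligase of ER-associated degradation (HRD1), had 50.2, 54.9 and 49.3 CPM under PBS and 108, 116 and 109 CPM under LPS in wild type, and 49.0, 53.8 and 50.5 CPM under PBS and 102, 95.8 and 116 CPM under LPS in Fes-/-. Its partner in the same complex, Sel1l, had 190.2, 179 and 169 CPM under PBS and 313, 326 and 348 CPM under LPS, and 185, 193 and 179.5 CPM under PBS and 336, 341 and 345 CPM under LPS. For both, the LPS libraries lay above the PBS libraries, at 1.11 and 1.04 for Syvn1 and 0.88 and 0.87 for Sel1l (adjusted p = 8.95e-09 to 3.21e-08), against 0.20 and 0.10, and -0.04 and -0.06, as a share of counts, where only Syvn1 in wild type was called (0.0327). 

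A pair of genes usually counted as unfolded protein response targets fell. Herpud1 (chromosome 8, 94386438 to 94395377, plus strand), which encodes an ER membrane protein of the degradation complex, had 27.6, 32.3 and 33.6 CPM under PBS and 11.5, 11.2 and 12.3 CPM under LPS in wild type. Its Fes-/- values were 31.0, 30.9 and 31.4 CPM under PBS and 14.5, 15.6 and 12 CPM under LPS. No LPS library reached the PBS range, and the change was -1.42 ± 0.10 in wild type (adjusted p = 7.86e-09) and -1.15 ± 0.10 in Fes-/- (7.52e-08). Dnajb9 (chromosome 12, 44205559 to 44210326, minus strand), which encodes the BiP cochaperone ERdj4, had 32.2, 32.8 and 27.6 CPM under PBS and 14.0, 14.3 and 8.91 CPM under LPS in wild type, and 23.7, 25.1 and 30 CPM under PBS and 9.36, 8.09 and 12.7 CPM under LPS in Fes-/-. It fell by 1.32 (adjusted p = 2.92e-05) and 1.39 (1.87e-05), again with no overlap.

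The remaining ER folding and degradation genes stood between these extremes. Edem1, a mannosidase-like protein that marks glycoproteins for degradation, had 265, 231 and 255 CPM under PBS and 343, 380.4 and 389.8 CPM under LPS in wild type, and 278, 267 and 238 CPM under PBS and 388, 411 and 357 CPM under LPS in Fes-/-. Manf, a secreted ER stress protein, had 56.9, 38.0 and 48.5 CPM under PBS and 86.8, 73.1 and 69.2 CPM under LPS, and 45.7, 53.9 and 49.5 CPM under PBS and 72.4, 75.3 and 73.5 CPM under LPS. Both were called higher relative to the typical gene, Edem1 at 0.57 and 0.56 and Manf at 0.68 and 0.57, with LPS above PBS in all libraries, and both had negative changes as a share of counts (-0.35 and -0.37; -0.23 and -0.37). Pdia6, a protein disulfide isomerase, had 202, 133 and 163 CPM under PBS and 259, 212 and 216 CPM under LPS in wild type, and 171, 183 and 185 CPM under PBS and 223, 245 and 237 CPM under LPS in Fes-/-. Hsp90b1, the ER HSP90 known as GRP94, had 549, 432 and 479.9 CPM under PBS and 639.8, 569 and 577 CPM under LPS, and 483, 534 and 511 CPM under PBS and 579, 672 and 602 CPM under LPS. The sign of each turned with the scale: 0.47 and 0.39 became -0.44 and -0.55 for Pdia6, and 0.29 and 0.28 became -0.62 and -0.66 for Hsp90b1, all called. The Hsp90b1 call relative to the typical gene ended in wild type without PBS 2 or LPS 1 (adjusted p = 0.0549 and 0.0744) and in Fes-/- without LPS 2 (0.0931). Creld2, Dnajc3, Sdf2l1 and Pdia4 were not called by edgeR with TMM factors in either genotype, with values from -0.17 to 0.24, and were called lower as a share of counts (-1.09 to -0.68). Relative to the typical gene, DESeq2 called Creld2 in wild type (0.28, adjusted p = 0.0385) and Dnajc3 in Fes-/- (0.19, 0.0441), and edgeR with RLE factors called Creld2 in both genotypes (0.0381 and 0.0489) and Dnajc3 in Fes-/- (0.0448). With the replicate number as a block in wild type, Creld2 was called at 0.24 (adjusted p = 0.0143) and Pdia4 at -0.17 (0.0238). Without wild-type PBS 2, Pdia4 was called in wild type (-0.26, 0.0177) and Creld2 in Fes-/- (0.23, 0.0313), and Creld2 was called in wild type without wild-type PBS 3 (0.35, 0.0192) or LPS 2 (0.30, 0.0422).

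The ER stress response element, the letters CCAAT followed after 9 bases by CCACG on either strand, is the site known to be bound by ATF6 with the factor NF-Y. It occurred within 250 bases upstream of 6 of the 31 matched genes and in 0.113% of the 32851 windows. The matches are shown with 5 bases on each side, on the gene's strand, since the genes that carry them ranged from a called rise of 1.60 (Hspa5) to an uncalled 0.11 (Dnajc3) in wild type; capitals mark the fixed letters.
Hspa5, chr2:34772020-34772048, plus strand: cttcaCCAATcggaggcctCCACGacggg
Syvn1, chr19:6046527-6046555, plus strand: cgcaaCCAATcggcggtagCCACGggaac
Pdia6, chr12:17266486-17266514, plus strand: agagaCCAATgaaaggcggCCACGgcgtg
Hsp90b1, chr10:86705633-86705661, minus strand: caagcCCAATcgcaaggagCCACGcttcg
Hsp90b1, chr10:86705528-86705556, minus strand: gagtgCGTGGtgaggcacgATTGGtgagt
Creld2, chr15:88819515-88819543, plus strand: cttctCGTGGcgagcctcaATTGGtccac
Dnajc3, chr14:118937822-118937850, plus strand: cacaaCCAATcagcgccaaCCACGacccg
Relative to the typical gene, 4 of the 6 were called higher in each genotype (Hspa5, Syvn1, Pdia6 and Hsp90b1), where 34.6% (wild type) and 34.3% (Fes-/-) of all genes were, and as a share of counts Hspa5 and Syvn1 kept a positive value. The stretch of Hspa5 lies within an annotated exon of that gene in GENCODE M21. The XBP1 element TGACGTGG occurred upstream of 0 of the 31 genes and in 0.563% of windows. A match describes letters in the window and not binding.

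Summed over their members, all 3 roles held less TPM in each LPS library than in any PBS library of the same genotype, where 3 libraries against 3 allow no exact p below 0.10 and none was computed. The 11 heat shock genes summed to 2944 to 3403 TPM in wild-type PBS and 1907 to 2198 TPM in wild-type LPS libraries, and to 3094 to 3246 and 1946 to 2106 TPM in Fes-/-. The 17 unfolded protein response genes summed to 2274 to 2940 and 2110 to 2238 TPM in wild type, and to 2634 to 2893 and 2108 to 2291 TPM in Fes-/-. The 9 ATF4 genes summed to 275 to 354 and 232 to 274 TPM in wild type, and to 322 to 440 and 260 to 308 TPM in Fes-/-. Most of the heat shock sum came from its 2 constitutive members, Hsp90ab1 at 1342 ± 96.4 TPM and Hspa8 at 1268 ± 61.4 TPM (mean ± SD, n = 3) under PBS in wild type, which were the 2 highest members on a per-length scale and did not differ beyond their spread. After them came Hsp90b1 at 562 ± 66.6 and Hspa5 at 521 ± 111 TPM, likewise within their spread of each other. Under LPS in wild type, Hspa5 at 825 ± 33.1 TPM lay above Hspa8 at 678 ± 34.6 TPM in mean level. These are levels as a share of the transcriptome, a scale on which the median gene also fell after LPS.

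**Figure D3:**
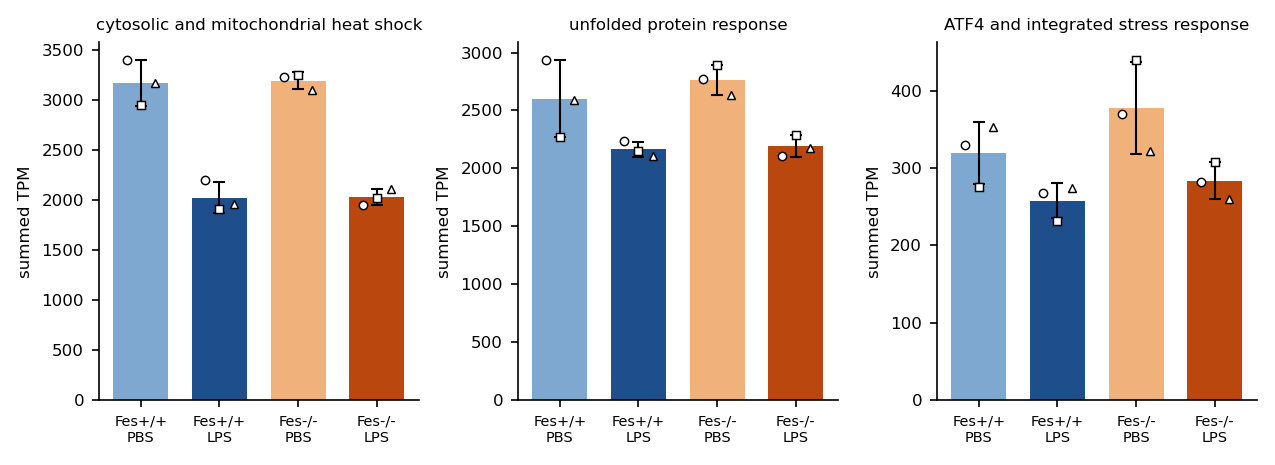
Summed TPM of the heat shock, unfolded protein response and ATF4 groups in the 4 groups of libraries. Bars are means of 3 libraries, error bars SD and points single libraries (circle, square and triangle for replicates 1, 2 and 3). Each LPS bar lies below the PBS bar of its genotype, on a scale where the median gene was lower after LPS too, and wild-type PBS replicate 2 is the lowest PBS library of its genotype in each panel.

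In the ATF4 group, Ppp1r15a rose most. The gene (chromosome 7, 45522916 to 45526268, minus strand) encodes GADD34, which directs a phosphatase to eIF2alpha and so ends the translational block. It had 10.4, 14.3 and 12.3 CPM under PBS and 95.1, 68.3 and 93.3 CPM under LPS in wild type. Fes-/- libraries had 11.2, 11.8 and 12.9 CPM under PBS and 108, 124 and 88.9 CPM under LPS. The rise was 6.93-fold in wild type (2.79 ± 0.16, adjusted p = 1.8e-09) and 8.94-fold in Fes-/- (3.16 ± 0.16, 5.75e-10), and every LPS library stood above every PBS library. Ddit3 (chromosome 10, 127290774 to 127296288, plus strand), the gene for the stress factor CHOP, fell. Its values were 11.4, 13.0 and 14.7 CPM under PBS and 3.56, 3.85 and 4.02 CPM under LPS in wild type, and 12.4, 9.71 and 10.4 CPM under PBS and 5.39, 3.55 and 2.94 CPM under LPS in Fes-/-. The LPS level was 29.3% of the PBS level in wild type (-1.77 ± 0.19, adjusted p = 5.67e-07) and 36.9% in Fes-/- (-1.44 ± 0.18, 4.55e-06), with no overlap.

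Atf4, the factor at the head of this branch, is regulated largely at translation, which counts of RNA do not show. It had 71.5, 55.7 and 77.5 CPM under PBS and 90.1, 88.4 and 90.4 CPM under LPS in wild type, and 78.1, 98.1 and 68.7 CPM under PBS and 85.7, 94.0 and 87.7 CPM under LPS in Fes-/-. The wild-type LPS libraries lay above the PBS libraries (0.39 ± 0.13, adjusted p = 0.0124), while the Fes-/- groups overlapped (0.13 ± 0.13, 0.384; without Fes-/- PBS 2 the change was 0.30, adjusted p = 0.0385), and both were lower as a share of counts (-0.52 and -0.81). The difference between the genotypes' LPS effects was -0.27 ± 0.18 (adjusted p = 1). Atf5 (chromosome 7, 44812256 to 44816658, minus strand), a related factor, had 17.8, 16.8 and 17.0 CPM under PBS and 14.4, 11.5 and 13.1 CPM under LPS in wild type and 15.1, 16.0 and 19.6 CPM under PBS and 11.1, 13.6 and 12.9 CPM under LPS in Fes-/-. It fell by 0.40 (adjusted p = 0.00581) and 0.43 (0.00342), the smallest fall among the 7 genes lowered in all 6 analyses, and PBS and LPS libraries did not overlap within a genotype. Trib3, a pseudokinase induced by ATF4 and CHOP, was low at 1.67 ± 0.313 CPM under PBS and 1.02 ± 0.269 CPM under LPS in wild type (mean ± SD, n = 3). Its falls of 0.72 and 0.63 (adjusted p = 0.0246 and 0.0369), -1.63 and -1.57 as a share of counts, were called in both genotypes. The calls relative to the typical gene, though not the sign, ended without wild-type PBS 3, wild-type LPS 1 or wild-type LPS 2 in wild type (-0.62 to -0.56, adjusted p = 0.0824 to 0.103), and without Fes-/- PBS 1, Fes-/- PBS 2, Fes-/- LPS 2 or Fes-/- LPS 3 in Fes-/- (-0.67 to -0.47, adjusted p = 0.06 to 0.155).

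**Figure D4:**
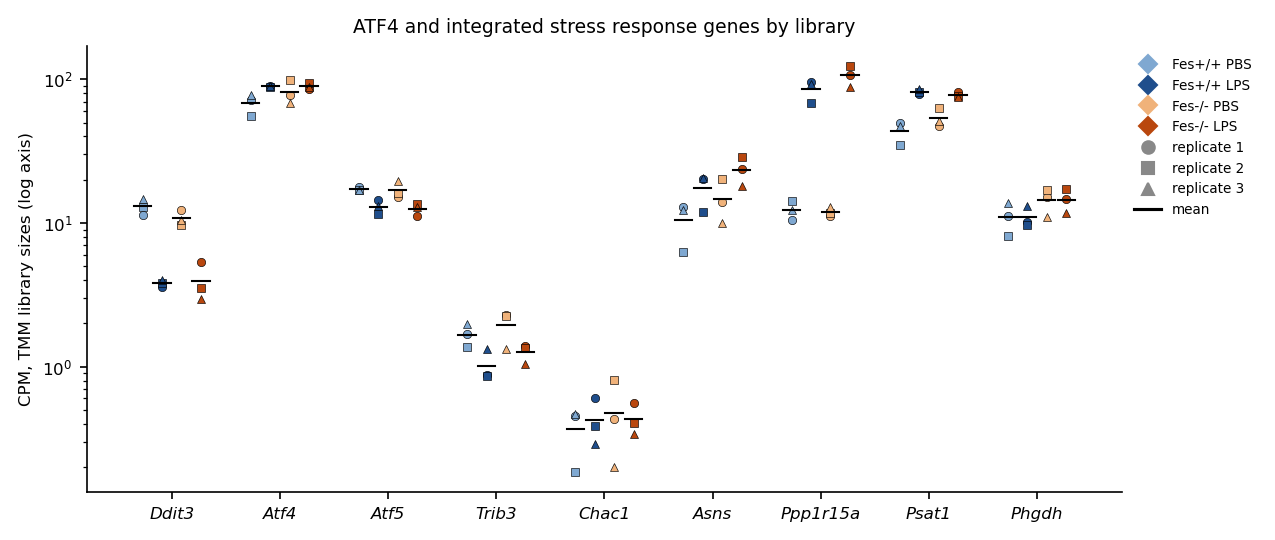
Levels in CPM (log axis) of the 9 genes of ATF4 and the integrated stress response in each of the 12 libraries, coloured by group, with symbols for the replicate number and short lines for group means. Ppp1r15a is higher and Ddit3 lower in every LPS library, and replicate 2 is the lowest wild-type and the highest Fes-/- library for Asns.

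None of the amino acid synthesis genes was called in 1 direction on both scales. Asns, which encodes asparagine synthetase, had 12.9, 6.26 and 12.4 CPM under PBS and 20.2, 12 and 20.5 CPM under LPS in wild type. In Fes-/- it had 13.9, 20.1 and 9.92 CPM and 23.6, 28.6 and 18 CPM. Replicate 2 was lowest in both wild-type groups and highest in both Fes-/- groups, and PBS and LPS overlapped in Fes-/- and in wild type. The change was 0.74 ± 0.34 in wild type (adjusted p = 0.0754, and 0.0494 by DESeq2) and 0.67 ± 0.34 in Fes-/- (0.0958); with the replicate number as a block in wild type it was 0.76 (4.15e-06). It was also called in wild type without wild-type LPS 2 (0.94, 0.0394) and in Fes-/- without Fes-/- PBS 2 (0.99, 0.0288). As a share of counts it was -0.17 and -0.26, neither called. Psat1, of the serine pathway, had 49.2, 34.6 and 47.0 CPM under PBS and 78.8, 81.0 and 85.0 CPM under LPS in wild type, and 47.1, 62.7 and 50.9 CPM under PBS and 81.2, 76.2 and 75.4 CPM under LPS in Fes-/-. Its LPS libraries were all higher relative to the typical gene (0.90 ± 0.12, adjusted p = 1.14e-05; 0.54 ± 0.12, 0.00125), and its share of counts changed by -0.01 (uncalled) and -0.40 (called lower). Phgdh, the first enzyme of that pathway, had changes of 0.00 ± 0.22 and 0.02 ± 0.21, against -0.91 and -0.92 as a share of counts (both called lower), and 35.8% of its 75-base words occur in other genes. Chac1, a glutathione-degrading enzyme, was below 1 CPM in every library (0.19 ± 0.50 and -0.13 ± 0.47, neither called). As a share of counts it was -0.72 in wild type (adjusted p = 0.19) and -1.06 in Fes-/- (0.0495, called lower).

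Sites for ATF4 dimers (TTGCATCA or TTTCATCA, either strand) occurred within 250 bases upstream of 3 of the 31 genes and in 1.67% of windows. The full cyclic AMP response element TGACGTCA occurred upstream of 1 gene, Ppp1r15a, and in 1.55% of windows. They are shown because their genes differed in direction, with Herpud1 lower, Ppp1r15a higher, and Chac1 and Asns not called by edgeR with TMM factors. Capitals mark the motif.
Herpud1, chr8:94386312-94386329, plus strand: gcgggTTGCATCAgcccg
Chac1, chr2:119351044-119351061, plus strand: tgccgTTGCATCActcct
Asns, chr6:7693220-7693237, minus strand: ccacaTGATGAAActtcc
Ppp1r15a, chr7:45526269-45526285, minus strand: tccggTGACGTCAgcac
The Asns stretch lies within an annotated exon of that gene.

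Other genes of these pathways were taken from 3 further lists that leave out the 37 members. Of 35 tested heat shock genes and cochaperones, 22 were higher and 4 lower after LPS in wild type relative to the typical gene, and 24 and 2 in Fes-/-. Over all genes, 34.6% were higher and 38.8% lower in wild type, and 34.3% and 38.9% in Fes-/-. As a share of counts, 8 of the 35 were higher and 24 lower in wild type, against 16.3% and 68.5% of all genes. In Fes-/- they were 7 and 25, against 15.9% and 70%. Dnaja2, a cytosolic HSP40 close to Dnaja1, had 78.6 ± 7.49 CPM under PBS and 615 ± 33.4 CPM under LPS in wild type (2.97 ± 0.10, adjusted p = 2.13e-12; Fes-/- 3.07 ± 0.10, 1.55e-12). Dnajb6, Cct3 (a subunit of the cytosolic chaperonin) and Cacybp rose by 1.76, 1.67 and 1.65 in wild type and by 1.84, 1.65 and 1.54 in Fes-/-, and these 4 genes were also called higher as a share of counts (0.60 to 2.14).

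Of 51 ER folding and degradation genes, 25 were higher and 7 lower in wild type and 27 and 7 in Fes-/- relative to the typical gene, where 34.6% and 38.8% of all genes were higher and lower in wild type and 34.3% and 38.9% in Fes-/-. As a share of counts they were 3 and 42, and 2 and 43, against 16.3% and 68.5%, and 15.9% and 70%, of all genes. Serp1, which stabilises membrane proteins at the ER translocon, rose by 1.39 ± 0.11 in wild type and 1.83 ± 0.11 in Fes-/- (adjusted p = 2.41e-08 and 1.14e-09), and by 0.48 and 0.90 as a share of counts. Crebrf, a regulator of the CREB3 factors, fell from 67.7 ± 17.6 to 28.7 ± 2.97 CPM in wild type (-1.24 ± 0.16, adjusted p = 9.5e-06) and by 0.89 in Fes-/- (0.000183). Ube2j1, a ubiquitin-conjugating enzyme of ER degradation, and Ssr3, a translocon subunit, were higher by 1.14 and 1.09 in wild type, and by 1.11 and 1.03 in Fes-/-. Their shares of counts changed by 0.23 and 0.18 in wild type, and 0.18 and 0.10 in Fes-/-, where Ssr3 was not called (adjusted p = 0.196) and limma on log2(TPM + 1) did not call Ube2j1 either (0.091).

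Of 50 further ATF4 targets and eIF2alpha genes, 18 were higher and 18 lower in wild type and 19 and 19 in Fes-/-, shares close to the 34.6% and 38.8%, and 34.3% and 38.9%, of all genes. On the scale of count shares they were 11 and 31, and 12 and 33, against 16.3% and 68.5%, and 15.9% and 70%, of all genes. Slc7a11, the cystine transporter gene, rose from 0.713 ± 0.182 to 122 ± 5.55 CPM in wild type (7.41 ± 0.25, adjusted p = 3.76e-11) and by 7.35 ± 0.25 in Fes-/-. The leucine zipper factor genes Jdp2 and Nfil3 rose by 5.01 and 3.86, and the stress gene Nupr1 by 3.77, in wild type (Fes-/- 4.49, 3.95 and 3.38). All 4 were called higher on both scales in both genotypes.

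No member was called between Fes-/- and wild-type macrophages. Under PBS the edgeR test called 0 of 37 members, against 0.0823% of all genes, and DESeq2 called 0, against 0.209%. At an unadjusted p under 0.05 there was 1 member, against 3.83% of all genes: Psat1, with 0.30 (95% interval 0.03 to 0.56, adjusted p = 0.975). No member had all 3 Fes-/- PBS libraries on 1 side of the wild-type ones. Under LPS edgeR called 0 of 37 members (0.108% of all genes) and DESeq2 0 (0.234%). The 3 members with an unadjusted p under 0.05 (6.52% of all genes) were Herpud1 at 0.27 (0.05 to 0.49), Hspa1b at 0.33 (0.00 to 0.65) and Ppp1r15a at 0.32 (0.00 to 0.64), all higher in Fes-/- with overlapping libraries (adjusted p = 0.719 to 0.764). Groups lay apart for 2 members under LPS, Atf6 (higher in Fes-/-, 0.10) and Xbp1 (lower, -0.21), neither called. The share of all genes whose groups lay apart was not computed, so no result about the members is drawn from these counts. Atf5 and Ppp1r15a lie on chromosome 7, as Fes does.

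The genotype intervals were narrow for most members. For 35 of 37 members, all but Asns and Chac1, the 95% interval stayed inside 2-fold up or down under PBS, and it did so for the same 35 under LPS. The LPS effects themselves differed between genotypes for 0 of 37 members by edgeR (0.019% of all genes) and 0 by DESeq2 (0.0316%), and 0 reached an unadjusted p under 0.05 (2.94% of all genes). The interval of that difference was within 2-fold for 35 of 37 members, again all but Asns and Chac1. It ran from -0.59 to 0.47 for Hspa1b, from -0.43 to 0.31 for Hspa5 and from -0.11 to 0.40 for Eif2ak3. Without a filter on low counts, edgeR called Asns under PBS (0.46, adjusted p = 0.0134) and Asns and Ppp1r15a under LPS (0.45 and 0.36, 0.0187 and 0.032), each higher in Fes-/-. Over all genes, 315 of 28358 were then called under PBS and 358 under LPS, against 13 and 17 of 15801 with the filter. Replicate 2 was the lowest wild-type and the highest Fes-/- library of Asns under each treatment. The part of replicate 2 in the calls of Asns and Ppp1r15a was not tested. The 3 further lists held 0 called genes in either genotype comparison or in the difference of LPS effects.

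**Figure D5:**
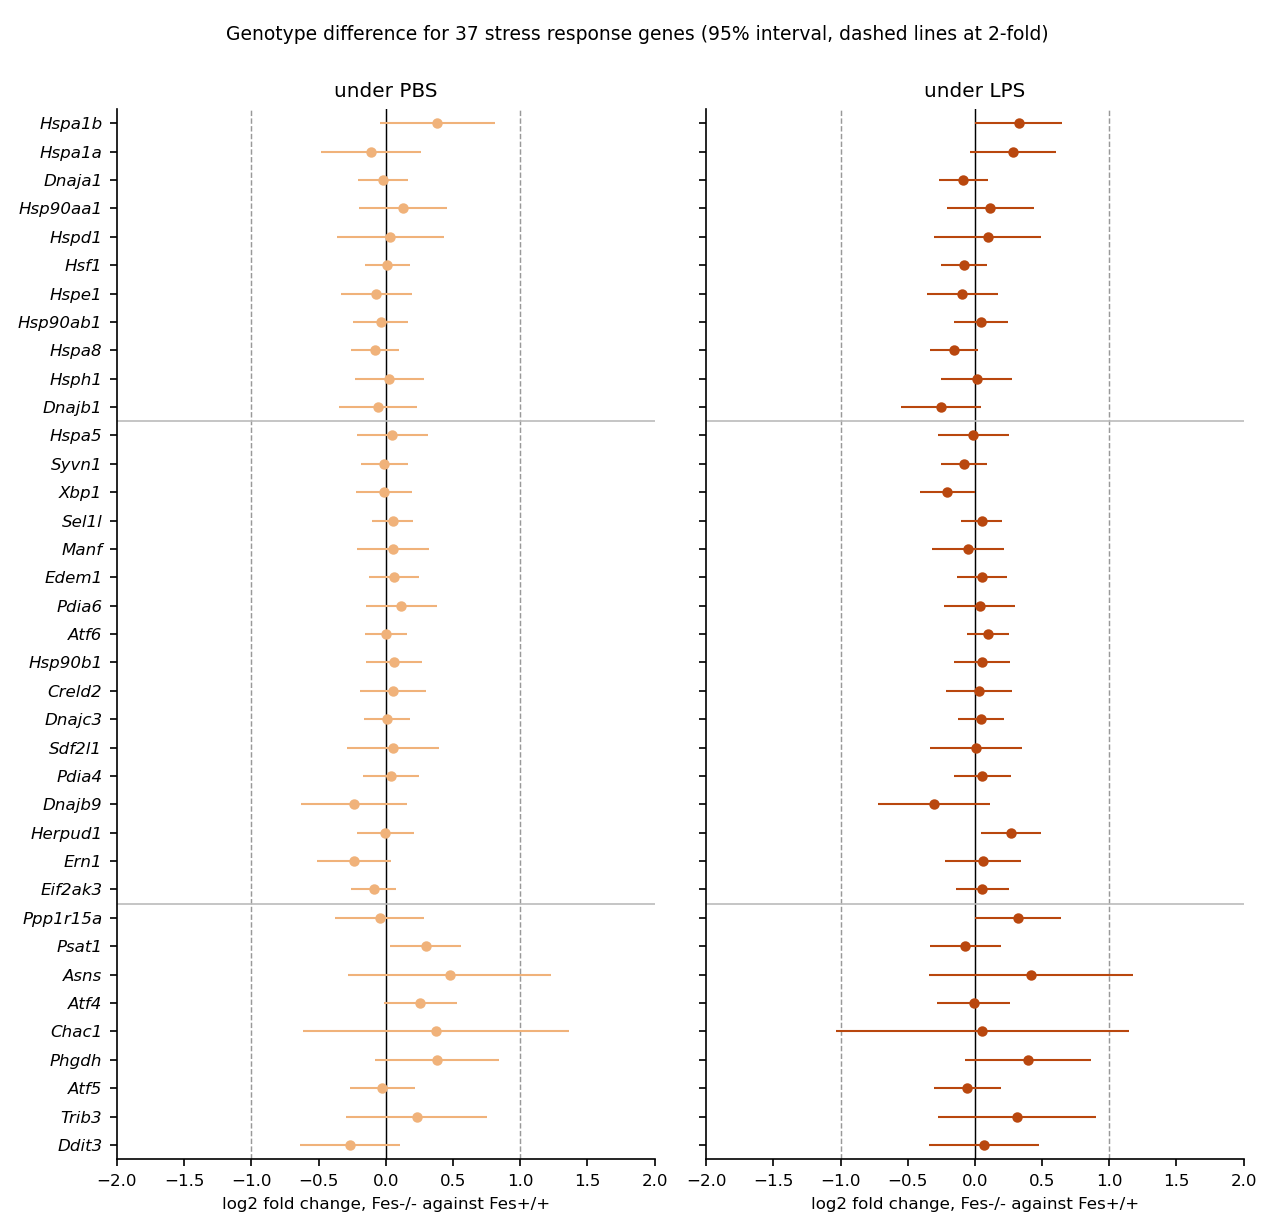
Difference between Fes-/- and wild-type macrophages for each of the 37 genes as a log2 fold change relative to the typical gene with its 95% interval, under PBS (left) and under LPS (right). Dashed lines mark 2-fold either way; only the intervals of Asns and Chac1 cross one.

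Libraries of 1 group differed in how often they were the lowest or highest of the 3. Wild-type PBS 2 was the lowest of its 3 libraries for 29 of 37 members, among them all 11 heat shock genes, and wild-type PBS 1 was the highest for 23. Hspa5 in that library was 369 CPM against 574 and 484 CPM in its replicates, and Ern1 went the other way. Without wild-type PBS 2, 16 members were called higher and 9 lower after LPS in wild type. Of all 16197 genes tested there, 5413 were higher and 5870 lower. In Fes-/- LPS libraries, replicate 2 was highest for 20 and replicate 3 lowest for 18 members. The share of all genes with the same order was not computed, so no result about the members is drawn from these orders. No label distinguishes these libraries, and what set them apart was not tested.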

How the data were processed

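Poly-A RNA of 12 libraries was measured. Raw counts per gene and TPM (per-length values that sum to the same total in each library) were deposited by the authors as 2 tables. STAR 2.7.8a, Picard 2.9.0, DESeq2 1.34.0 and the builds GRCm38 and mm9 are named in the submitters' processing notes without their roles. The counting program and its strand setting are not given in the sources used here. Gene lengths implied by counts and TPM lay within 1% of GENCODE M21 (GRCm38) for 98.6% of the 9482 genes with enough counts, so that annotation gives the coordinates.

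The members and the lists were chosen with earlier results of these data known. Counts of all genes were fitted with edgeR 4.0.16 (quasi-likelihood test, robust, TMM factors, group means, filterByExpr filter, 8 residual degrees of freedom), which left 15801 of the 28358 genes with a count. P-values were adjusted by the Benjamini-Hochberg method over these. They measure the spread between libraries titled as biological replicates. Alternatives used DESeq2 1.42.0 and limma 3.58.1 on log2(TPM + 1) and log2(TPM + 0.1), in R 4.3.3. The test was checked on simulated counts in which few genes were changed, equally up and down, in a single group. That check does not cover a change of most genes, as after LPS. No 2 libraries held identical values. Depth was 61016254 to 101027166 counts per library, and the members with the fewest counts, whose counting error is largest, were Chac1 (14 to 79), Trib3 (39 to 222) and, in PBS libraries, Hspa1a and Hspa1b (74 to 153).

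Per-library values are given for members called in at least 1 comparison with a mean of 5 CPM or more in some group. Asns was added after its values were seen. Up to 4 genes of each further list are named, the called ones with the largest change in wild type among those with a mean of 5 CPM or more in some group. Same-numbered PBS and LPS libraries deviated together in wild type (correlations of deviations from the group means 0.137 to 0.166). In Fes-/- these correlations were 0.0678, 0.0894 and 0.189, and each library deviated most like its own number there too. Fes-/- PBS 1 and Fes-/- LPS 2, of unlike numbers, had 0.0603. Across genotypes the same numbers did not deviate together (-0.156 to 0.0161 under PBS, -0.151 to -0.0429 under LPS). No label states a pairing, and the main fit had no block. Fits with the number as a block are given as alternatives, beside the genes for wild type and in the closing section for Fes-/-. Sequences and promoter windows are from RefSeq on GRCm38.p6.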

Additional observations from a re-analysis of the deposited data

How the results depend on the processing

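Scaling decides the direction of many members. Signs are compared wherever the member was called either in the edgeR test with TMM factors or in the alternative. With no factor beyond the library total the LPS change in wild type had the opposite sign for Hsf1 -0.58, Hspa8 -0.87, Hsp90ab1 -0.66, Hspd1 -0.57, Hspe1 -0.63, Hsp90b1 -0.62, Atf6 -0.62, Edem1 -0.35, Dnajc3 -0.81, Sdf2l1 -0.87, Pdia6 -0.44, Creld2 -0.68, Manf -0.23, Sel1l -0.037, Atf4 -0.52, Psat1 -0.010 and Phgdh -0.91, and in Fes-/- for Hsf1 -0.70, Hsp90aa1 -0.028, Hsp90ab1 -0.59, Hspd1 -0.54, Hspe1 -0.68, Hsp90b1 -0.66, Xbp1 -0.055, Atf6 -0.55, Edem1 -0.37, Dnajc3 -0.79, Pdia6 -0.55, Creld2 -0.72, Manf -0.37, Sel1l -0.060, Atf4 -0.81, Psat1 -0.40 and Phgdh -0.92. With limma on log2(TPM + 1) it had the opposite sign in wild type for Hsf1 -0.56, Hspa8 -0.90, Hsp90ab1 -0.69, Hspd1 -0.59, Hspe1 -0.66, Hsp90b1 -0.65, Atf6 -0.63, Edem1 -0.37, Dnajc3 -0.82, Sdf2l1 -0.87, Pdia6 -0.46, Creld2 -0.69, Manf -0.25, Sel1l -0.065, Atf4 -0.53, Psat1 -0.022 and Phgdh -0.86, and in Fes-/- for Hsf1 -0.67, Hsp90aa1 -0.070, Hsp90ab1 -0.64, Hspd1 -0.58, Hspe1 -0.71, Hsp90b1 -0.70, Xbp1 -0.097, Atf6 -0.58, Edem1 -0.41, Dnajc3 -0.82, Pdia6 -0.59, Creld2 -0.75, Manf -0.40, Sel1l -0.10, Atf4 -0.83, Psat1 -0.42 and Phgdh -0.91. With log2(TPM + 0.1) the wild-type values were Hsf1 -0.60, Hspa8 -0.90, Hsp90ab1 -0.69, Hspd1 -0.60, Hspe1 -0.67, Hsp90b1 -0.65, Atf6 -0.65, Edem1 -0.37, Dnajc3 -0.83, Sdf2l1 -0.88, Pdia6 -0.46, Creld2 -0.70, Manf -0.25, Sel1l -0.066, Atf4 -0.53, Psat1 -0.022 and Phgdh -0.92, and the Fes-/- values Hsf1 -0.73, Hsp90aa1 -0.070, Hsp90ab1 -0.64, Hspd1 -0.58, Hspe1 -0.72, Hsp90b1 -0.70, Xbp1 -0.098, Atf6 -0.59, Edem1 -0.41, Dnajc3 -0.84, Pdia6 -0.59, Creld2 -0.76, Manf -0.40, Sel1l -0.10, Atf4 -0.83, Psat1 -0.43 and Phgdh -0.95. By construction these 3 scales leave in the shift of the typical gene, a median of -0.98 and -1.01, -0.67 and -0.72, and -0.95 and -0.99 in wild type and Fes-/-. No sign turned with DESeq2, RLE factors, other filters, the 2 groups alone, the replicate block or 1 library left out.

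Without a filter on low counts, 1 member was called between the genotypes under PBS and 2 under LPS, against 0 and 0. Over all genes, 315 of 28358 were then called under PBS and 358 under LPS, against 13 and 17 of 15801 with the filter. The cause was not tested. The fit without a filter ended the LPS calls of Hsf1 and Hsp90b1 in both genotypes and of Hsp90ab1 and Atf6 in wild type. It gained 3 LPS calls in wild type, among them Hspd1 (0.25, adjusted p = 0.0279) and Pdia4 (-0.26, 0.0192). In Fes-/- it gained 2, among them Hspd1 (0.35, 0.000928). RLE factors ended the call of Trib3 in Fes-/- (adjusted p = 0.054). The 2 groups alone ended that of Hsp90ab1 in wild type (0.0599). They gained 1 call in wild type and 3 in Fes-/-, among the latter Hspd1 (0.42, 0.000333) and Hspe1 (0.28, 0.00544). Leaving out 1 library at a time gave 23 to 29 called members in wild type, 23 to 28 in Fes-/-, and 0 to 0 for each genotype comparison and for the difference of LPS effects. Of the 16159 to 16302 genes tested in these fits, 11074 to 11743 were called after LPS in wild type and 11014 to 11848 in Fes-/-. The replicate block within genotype gave 31 called members in wild type and 30 in Fes-/-, which kept all members called without it. Of all 15801 genes the block called 11862 in wild type and 11877 in Fes-/-. In Fes-/- it added Hspd1 0.39 (6.43e-05), Hspe1 0.25 (0.00558), Pdia4 -0.16 (0.0358), Creld2 0.21 (0.028) and Asns 0.71 (7.18e-06) (log2 change with adjusted p). The block over same numbers of both genotypes called 0 members under PBS and 0 under LPS. Depth limits Chac1, with 14 to 79 counts per library.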
